A study of Drosophila melanogaster with 9 samples.

Results

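RNA recovered with an anti-FLAG antibody was set against RNA recovered with a control antibody in ovaries of Drosophila melanogaster of the genotype aramis::GFP::FLAG. In RNA immunoprecipitation, an antibody pulls a protein out of a lysate and the RNA that comes down with it is sequenced. The control antibody shows what comes down without an antibody against the tag. The 3 IP libraries (anti-FLAG) and the 3 IgG libraries (control mouse IgG) came from flies of the same genotype and age, dissected between 1 and 3 days after eclosion, and poly(A) RNA was selected before sequencing. No library from ovaries without the tag was analysed here, and the labels do not state what drives the tagged protein or whether the replicates were separate dissections, so p-values measure the spread between these samples. Of 17024 features in the count tables, 7105 had a count in each of the 6 libraries. Of these, 7095 also passed the filter on low counts and are the genes described below, with a lowest count of at least 10 in 6988 of them and below that in 107.

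Aramis, encoded by ais, is a DEAD-box RNA helicase, one of a family of proteins that remodel RNA and RNA-protein complexes. The series places it in a pathway that links the differentiation of germline stem cells to the making of ribosomes. Ribosomes are built from ribosomal RNA and a large set of ribosomal proteins, and cells adjust the translation of the ribosomal protein mRNAs as a group. In mammals these mRNAs begin with a C and a run of pyrimidines, known as a TOP motif, which is bound by LARP1; larp is the fly gene of that family. The question addressed here is which of these and other mRNAs came down with the antibody against the tag more, or less, than with the control.

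The IP libraries held 35191953, 39549903 and 42062907 counts and the IgG libraries 35543571, 30533376 and 46061760. The IgG libraries were the more scattered group. They detected 7805 to 7929 features against 9700 to 9985 in IP, and log2 CPM (counts scaled to library size) of replicates correlated across genes, which are not independent replicates, with Pearson's r of 0.876 to 0.884 in IgG and 0.966 to 0.974 in IP. In a principal component analysis the IgG library of replicate 3 lay apart from the others on the second component (-115, against 8.36 to 45.1), and the main counts are also given without it. The tissue markers fitted the label. Among the germline markers 7 of 8 were counted in all 6 libraries and held 0.222 to 0.330% of the counts, the eighth, cup, being listed at 0 in every library with all of its exonic bases shared with another gene on the same strand. All 8 follicle cell markers were counted in all 6 and held 1.64 to 2.02%, whereas no marker of the gut, testis, or hemocytes and fat body was, and of the nervous system 1 of 4, elav, was.

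Across the 7095 genes, 413 were called higher in IP (5.82%) and 281 lower (3.96%), or 694 in all (9.78%). Over all 8789 genes tested, 700 were called (7.96%), 419 of them higher (4.77%) and 281 lower (3.2%). A gene was called when its adjusted p was under 0.05 in edgeR's quasi-likelihood test with Benjamini-Hochberg adjustment over those genes. Most changes were moderate. A 2-fold difference was reached by 33 genes called higher and by 100 called lower, and the median log2 fold change of all 7095 genes was -0.0024. The IP and IgG values did not overlap for 34.3% of the genes, with all 3 IP values above all 3 IgG values for 19.5% and below them for 14.8%. Calls depended on the level of the gene. In the lowest of 5 bins of mean CPM over the 6 libraries, 0.211% of genes were called higher and 0.423% lower. In the highest bin of mean CPM these shares were 20.7 and 12.4%, so lists of different levels differ in how readily their genes are called. The split between higher and lower depended on the scaling. When libraries were scaled by their totals, 1146 genes were called and 85.6% of them were higher, against 59.5% with the trimmed mean of M-values (TMM) used here, and the median of all genes lay at 0.19. Leaving out IP replicate 1, 2 or 3 left 331, 295 and 328 calls, and leaving out an IgG replicate gave 817 to 868, of which 817 (466 higher, 351 lower) were without IgG replicate 3.

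The genes that were higher in IP were long and the genes that were lower were short. Median exon length (the annotated exonic bases of a gene) was 5986 bases for the 398 higher genes with an annotated length and 1133 for the 267 lower genes, against 2208 for all 6917 with a length. In the shortest of 5 length bins with equal numbers of genes, up to 1220 bases, 1 gene was called higher and 151 lower (10.9%). In the longest length bin, from 4315 bases, 299 were called higher (21.6%) and 7 lower. The median log2 fold change went from -0.32 in the shortest length bin through -0.14, 0.00 and 0.14 to 0.33 in the longest. Across genes, which share the same 6 libraries, Spearman's rho with the fold change was 0.46 for exon length, 0.49 for coding length, 0.24 for the 5' UTR, 0.19 for the 3' UTR and 0.16 for exonic GC content. When a curve of log exon length was removed from each library, 62 genes were called higher and 173 lower. Of these, 60 and 155 were among the 413 and 281. Counts with exon length removed in this way are given beside most of the groups below.

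**Figure D1:**
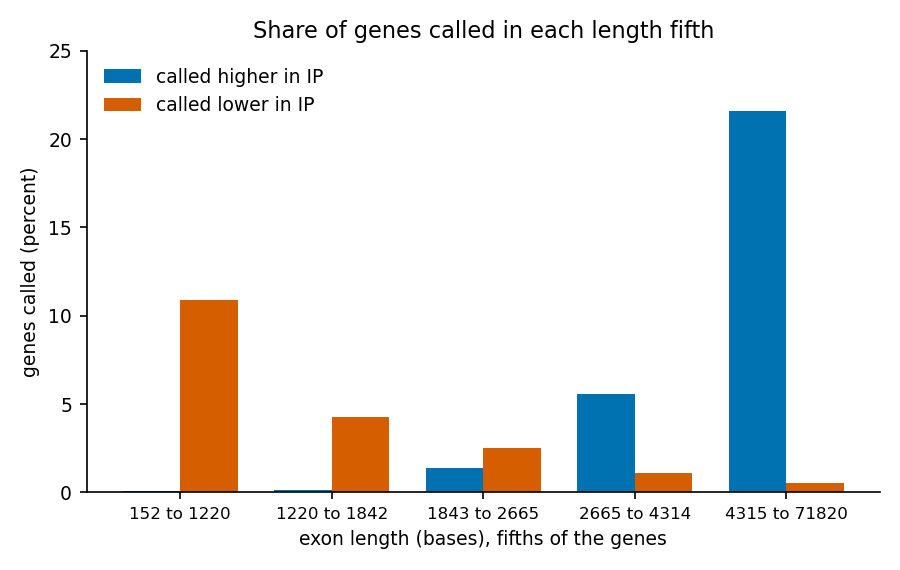
The bars give the percent of genes called higher (blue) and lower (orange) in IP than in IgG in each of the 5 length bins of the 6917 genes with an annotated exon length, with the length range in bases under each pair. The share called higher reaches 21.6% in the longest length bin, and the share called lower is 10.9% in the shortest.

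Ribosomal protein mRNAs were lower in the pulldown almost throughout. Of the 78 measured mRNAs for cytoplasmic ribosomal proteins, 75 were called lower in IP and none higher, against 3.96% of all genes called lower. All 78 had every IP value below every IgG value, which held for 14.8% of all genes. Their median log2 fold change was -1.14, with -1.16 for the 45 proteins of the large subunit and -1.02 for the 33 of the small subunit. The median level of these mRNAs in IP was 436 CPM, against 55.7 for all genes. Together they took 4.30, 3.91 and 3.75% of the counts in the IP libraries and 7.42, 6.22 and 8.12% in the IgG libraries, so the groups did not overlap. The count of 75 was the same when any 1 of the 6 libraries was left out.

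RpL21 (FBgn0032987, 2L, 22247111 to 22247875), a large subunit protein, stood at 518, 534 and 542 CPM in IP and at 1239, 1307 and 1433 in IgG. The groups lay far apart, with a 2.50-fold lower level in IP (log2 fold change -1.32, SE 0.08, adjusted p 0.000343). RpS20 (FBgn0019936, 3R, 20822181 to 20823356), a small subunit protein, stood at 367, 339 and 315 CPM in IP and 882, 787 and 936 in IgG, a log2 fold change of -1.35 (SE 0.10, adjusted p 0.000396). The largest falls were those of RpL36A, RpL38 and RpL41, at log2 fold changes of -2.05, -1.92 and -1.90. These 3 and the other examples from lists of 15 or more genes that are not the best-supported call of their list were chosen for naming after their values were seen. The smallest called falls were those of RpS4 at -0.57 and of the paralogs RpS5a and RpS5b at -0.60 and -0.67. How any reads that fit both paralogs were counted is not known. RpL22, RpL3 and RpS15Ab were not called, with log2 fold changes of -0.54, -0.25 and -0.68 (adjusted p 0.135, 0.140 and 0.258). RpL3, a core protein of the large subunit, stood at 2498, 2237 and 1900 CPM in IP and 2643, 2655 and 2583 in IgG, just apart.

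Ribosomal protein mRNAs are short, but their recovery lay below that of other short genes. In the shortest length bin, 59 of 61 ribosomal protein genes were called lower (96.7%), against 92 of the 1323 other genes there (6.95%), and the median log2 fold changes were -1.15 and -0.30. In the next length bin, 14 of 14 were lower, against 3.29% of the others. The longest of them, RpL5, has 3835 annotated exonic bases and stood at 749, 695 and 682 CPM in IP and 1720, 1470 and 1849 in IgG (log2 fold change -1.24, SE 0.10, adjusted p 0.000396). With exon length removed, 70 of the 78 were called lower and the median was -0.85.

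**Figure D2:**
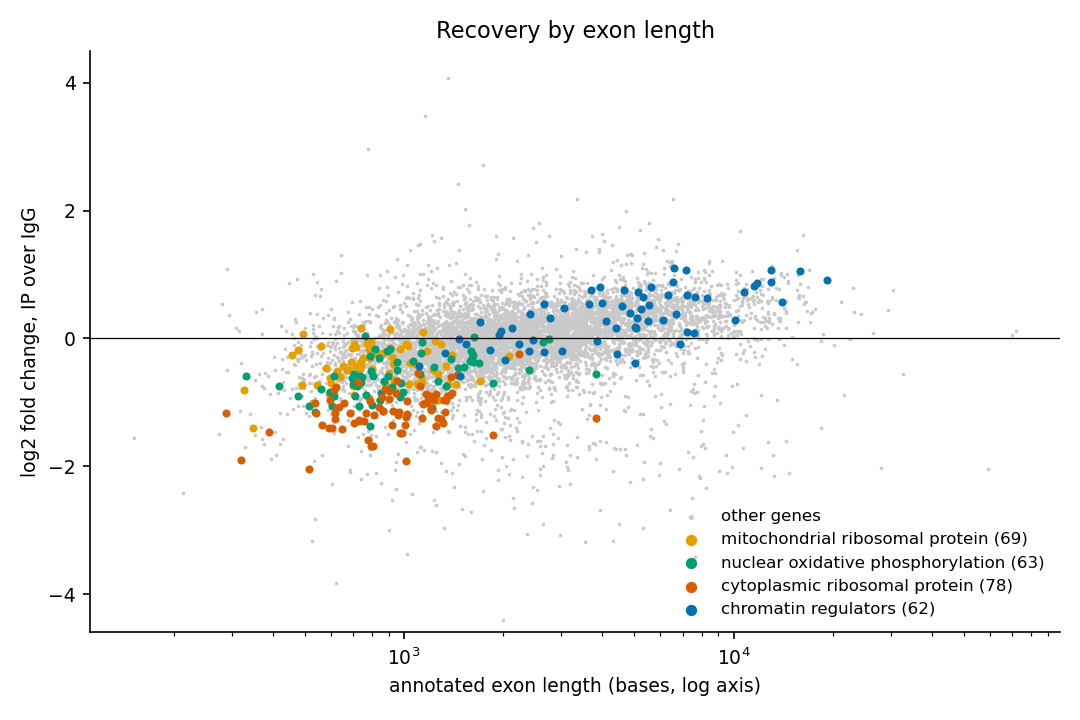
Each point is 1 of the 6917 genes with an annotated length, placed by its exon length in bases (log axis) and its log2 fold change of IP over IgG. Cytoplasmic ribosomal protein genes (dark orange) lie at the lower edge of the genes of similar length, mitochondrial ribosomal protein genes (yellow) and nuclear oxidative phosphorylation genes (green) lie nearer to its middle, and chromatin regulators (blue) lie mostly above 0 among long genes.

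The starts of these genes are shown because a pyrimidine-rich first stretch is what the TOP motif consists of. The windows run from 10 bases before the annotated start of the gene's canonical transcript through the first 15 bases of it, on the gene's own strand, from the dm6 genome (Release 6, RefSeq sequence, with starts from Ensembl BDGP6). Capitals mark CTTT where it begins within 5 bases of the start. First come the 8 ribosomal protein genes called lower with the smallest p among genes on chromosome arms 2L, 3L and 3R and on X:
RpL21 (chr2L:22247819-22247843, minus strand): tcaagtagccatCTTTctttctttt
RpL37-1 (chrX:15139353-15139377, minus strand): gcgtctcttcttcttcccttttctt
RpS20 (chr3R:20822171-20822195, plus strand): cctgtaaaacttctcttcgttttca
RpLP0 (chr3L:22075857-22075881, plus strand): aagcactgttagttaacagaagaga
RpS7 (chr3R:30208928-30208952, minus strand): gctcgacttcCTTTcctgtcaaaat
RpL13 (chr2L:9967320-9967344, plus strand): gttgcgatttcCTTTttaattcgtt
RpS29 (chr3R:9778032-9778056, plus strand): aatcgctgcgatcaatcgtggaaaa
RpL5 (chr2L:22536870-22536894, minus strand): taagaaattgcgttgttgaatgtta
For contrast, the 4 genes called higher in IP with the smallest p on the same chromosome arms begin as follows:
Atpalpha (chr3R:20948770-20948794, plus strand): acatccctgggaataatcgagttaa
nej (chrX:9685653-9685677, minus strand): gtgtatttccgagctcggtggtgta
Mi-2 (chr3L:19910201-19910225, minus strand): cgctctccgctccgccatatttgtt
Spt6 (chrX:6267787-6267811, plus strand): cttttgtgcaatgcgatgagaaata

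CTTT near the start was more frequent among ribosomal protein genes than among other genes, and genes with and without it were lower in IP. It was found in 40 of the 78 (51.3%), against 5.66% of the 13629 coding genes with a start. Of the 40 with the letters, 39 were called lower, with a median log2 fold change of -1.15, and of the 38 without them, 36 were, with a median of -1.14. Outside the ribosomal protein genes, 3.93% of 382 genes with the letters and 2.66% of 6363 without them were called lower. Only these 4 letters were sought, so a start with another run of pyrimidines, such as that of RpL37-1, counts as without them. The comparison therefore cannot tell genes with a TOP motif from genes without it. The annotated start can differ from the one used in the ovary, and a match to 4 letters is not a binding site.

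**Figure D3:**
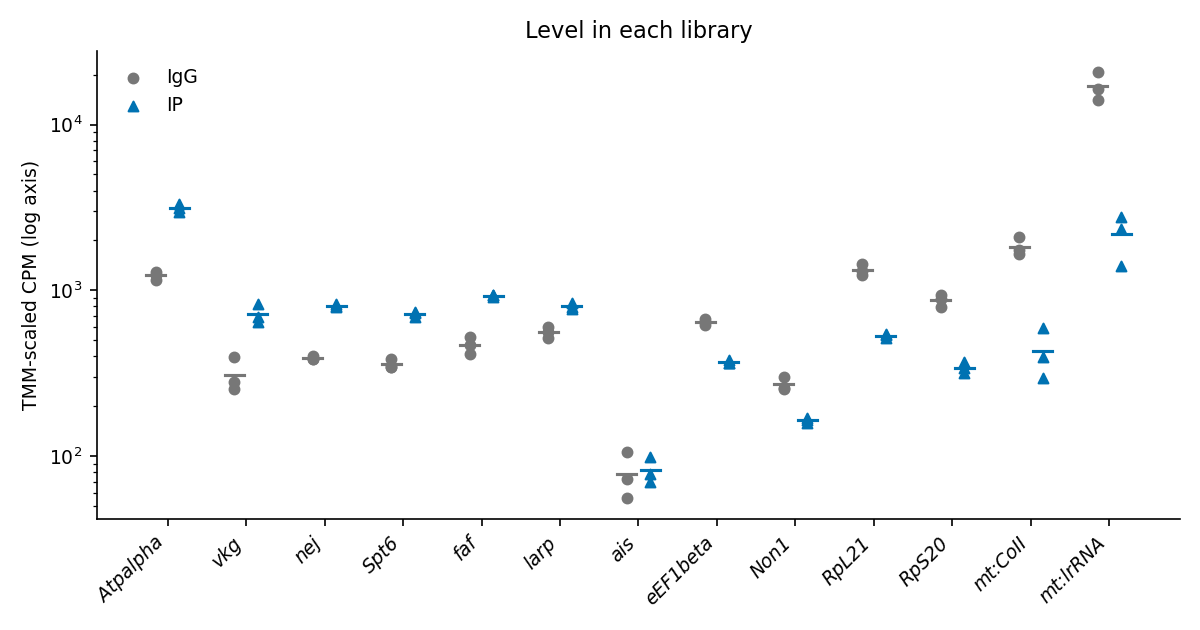
Points give the TMM-scaled CPM (log axis) of 13 named genes in each IgG library (grey circles) and each IP library (blue triangles), with the group mean as a bar. The groups are apart for each gene except ais, from Atpalpha at 2986 to 3323 CPM in IP against 1148 to 1293 in IgG to mt:lrRNA at 1409 to 2785 against 14025 to 20758.

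Mitochondrial ribosomal protein mRNAs were rarely called. Of 69 mRNAs for mitochondrial ribosomal proteins, which the nucleus encodes, 1 was called lower, against 3.96% of all genes, and none higher. The median level of these mRNAs in IP was 28.3 CPM, against 55.7 for all genes. Their median log2 fold change was -0.43, and 65 of the 69 values were negative. In 24 of them all IP values lay below all IgG values, against 14.8% of all genes. The shortest length bin holds 58 of them, where none was called and the median was -0.43, against -0.31 for the other genes. In the next length bin the median of 10 was -0.52, against -0.13. The 1 called gene was mRpL37 (FBgn0261380), at 100, 102 and 78.5 CPM in IP and 151, 143 and 166 in IgG (log2 fold change -0.71, SE 0.14, adjusted p 0.0178). It was no longer called once exon length was removed (adjusted p 0.0810), and the median of the list was then -0.13. With 1 library left out the list had 0 to 13 lower calls. DESeq2 called 10 of the list lower, and the fit of all 9 libraries called 19 lower.

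Nuclear mRNAs of oxidative phosphorylation, the respiratory complexes and the ATP synthase, fell more often than genes at large. Of 63 measured, 25 were called lower, against 3.96% of all genes, and none higher, with a median log2 fold change of -0.59. In 47 of them all IP values lay below all IgG values, against 14.8% of all genes. In the shortest length bin 42.2% of 45 were called lower, against 9.86% of the other genes. ATPsynC (FBgn0039830, 3R, 31216145 to 31219630), the ring subunit of the ATP synthase, stood at 1315, 1309 and 1194 CPM in IP and 2004, 2040 and 2137 in IgG (log2 fold change -0.69, SE 0.07, adjusted p 0.000763). The falls reached -1.37 for ATPsynG, another ATP synthase subunit, -1.09 for SdhB of complex II and -1.06 for COX5B of complex IV. The count fell to 5 with exon length removed, lay between 6 and 29 when 1 library was left out and was 22 without IgG replicate 3.

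RNAs of the mitochondrial genome were lower still, though they scattered between libraries. All 12 measured features other than tRNAs had a negative log2 fold change, with a median of -1.94. Of these, 5 were called lower, against 3.96% of all genes. The large ribosomal RNA, mt:lrRNA, stood at 2785, 2357 and 1409 CPM in IP and 14025, 16372 and 20758 in IgG, a 7.81-fold difference (adjusted p 0.000654). The cytochrome oxidase mRNA mt:CoII stood at 595, 395 and 294 CPM in IP and 1760, 2086 and 1646 in IgG (log2 fold change -2.10, SE 0.23, adjusted p 0.00129), also without overlap. The first IP library held the highest IP value of mt:CoII, mt:CoIII, mt:ND1, mt:lrRNA and that of mt:ATPase6, which lay within the IgG range. In mt:ND2, the largest fall of the list (-3.38), it held the lowest. mt:ND2 stood at 3.40, 10.9 and 14.1 CPM in IP and 192, 81.7 and 21.7 in IgG, and it lost its call in 12 of 19 alternatives. In all, these RNAs took 1.26, 0.761 and 0.511% of the counts in IP and 3.21, 3.55 and 3.10% in IgG. With a curve of exonic GC content removed the median was 0.0018, mt:lrRNA stood at -0.17 (adjusted p 0.868), and mt:CoII at -0.89, still called. The curve was drawn from all genes counted in the 6 libraries, these RNAs among them, so it may remove part of their own difference. The count of 5 lay between 2 and 9 when 1 library was left out.

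**Figure D4:**
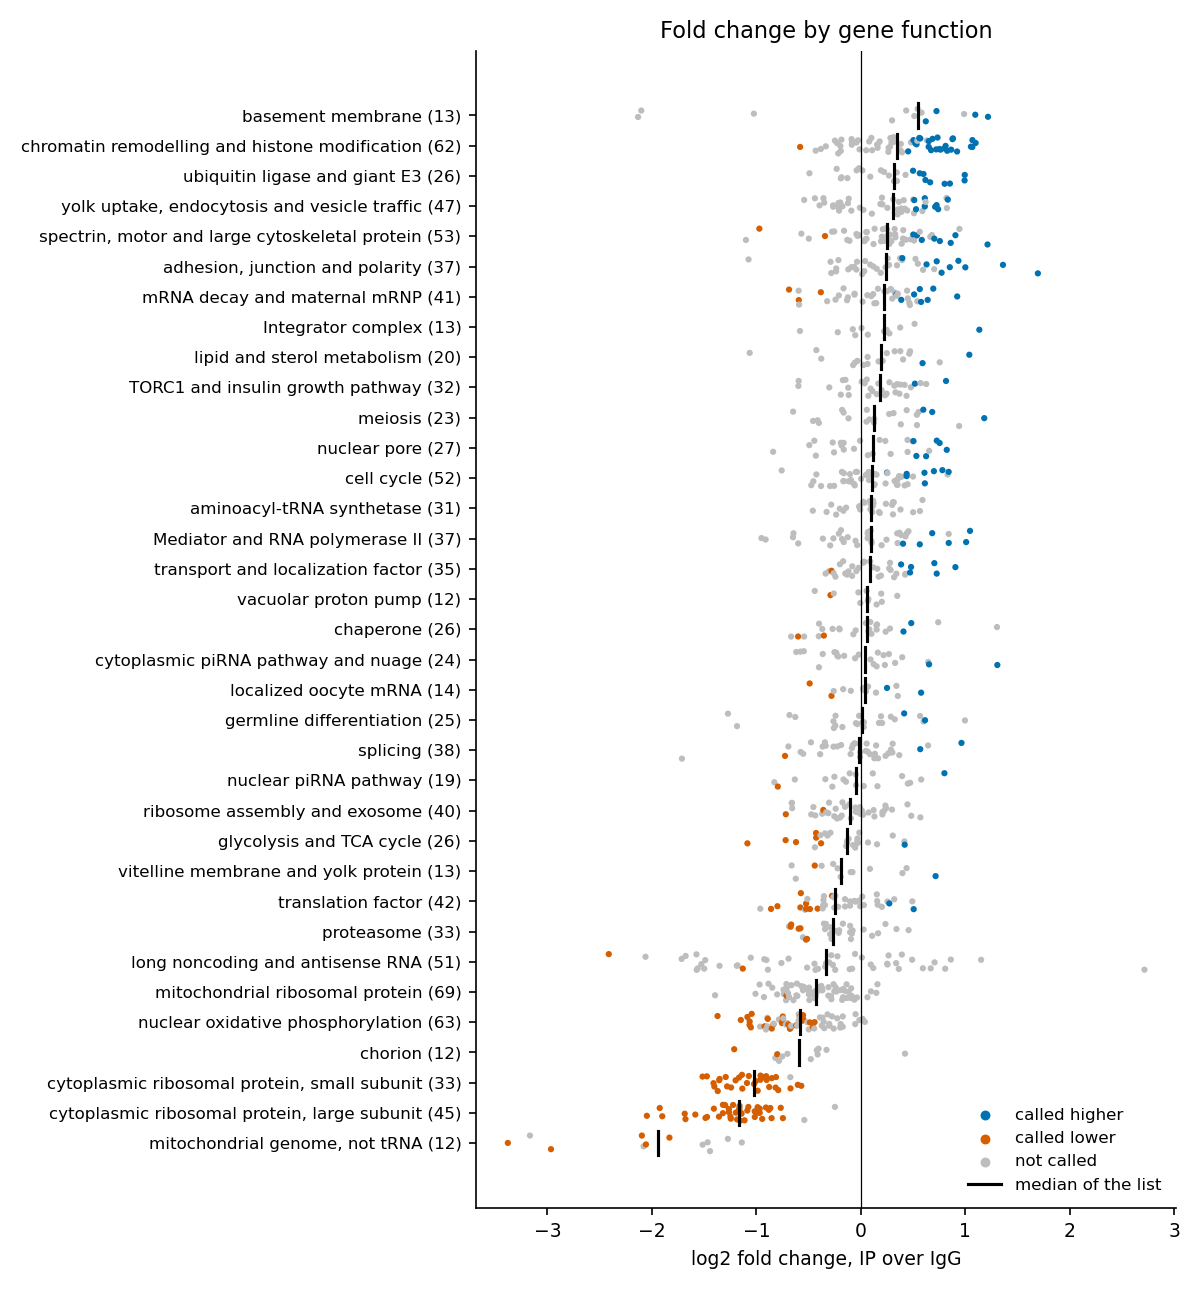
Points are the log2 fold changes (IP over IgG) of the members of each list with at least 12 measured genes, ordered by the list's median (black bar), with the number of members in brackets. Points are blue where called higher, orange where called lower and grey where not called. The lists run from -1.94 for the mitochondrial genome and -1.16 for the large ribosomal subunit to 0.35 for chromatin regulators and 0.54 for the basement membrane.

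Other mRNAs of the translation machinery were called in both directions. Of 42 translation factors, 9 were called lower and 2 higher, against 3.96 and 5.82% of all genes. The lower ones included eIF1, which helps select the start codon (log2 fold change -0.86), eEF1beta and eEF1gamma, subunits of the elongation factor that recharges eEF1alpha (-0.80 and -0.52), the helicase eIF4A (-0.49) and the cap-binding protein eIF4E1 (-0.28). The best supported was eEF1beta (FBgn0028737), at 380, 365 and 362 CPM in IP and 667, 616 and 643 in IgG (SE 0.07, adjusted p 0.000601). The 2 higher ones were the scaffold eIF4G1 (0.27) and the subunit-joining factor eIF5B (0.51, SE 0.10, adjusted p 0.0222). The 9 became 6 and the 2 became none with exon length removed, and with 1 library left out they lay between 4 and 10 and between 0 and 2. None of 31 aminoacyl-tRNA synthetase mRNAs was called in either direction (median 0.10), and among 40 ribosome assembly and exosome genes 2 were called lower and none higher (median -0.10, and 0.08 with scaling by library totals; 1 to 4 lower with 1 library left out). At an unadjusted p under 0.05, 5 of the synthetases passed, 4 of them higher, and DESeq2 called 1 higher and 1 lower.

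Proteasome and central metabolism mRNAs were mostly lower where they were called. Of 33 proteasome genes, 6 were called lower, against 3.96% of all genes, and none higher, all 6 encoding subunits of the core particle, among them Prosbeta6 (log2 fold change -0.58, SE 0.10, adjusted p 0.00890). None of the list was called with exon length removed, and its lower calls lay between 0 and 11 with 1 library left out. Of 26 genes of glycolysis and the TCA cycle, 6 were lower, including the malate dehydrogenases Mdh1 (-0.72, SE 0.10, adjusted p 0.00412) and Mdh2 (-0.43) and the glycolytic enzymes Gapdh2 and Eno (-0.43 and -0.38). Hex-A, the hexokinase of the first step of glycolysis, was higher (0.42, SE 0.09, adjusted p 0.0256). With exon length removed 5 were lower and none was higher, and with 1 library left out 2 to 5 were lower. The median of the list was -0.13, and 0.06 with scaling by library totals.

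Chromatin regulators made up the list with the most mRNAs above the control. Of 62 measured genes for chromatin remodelling and histone modification, 25 were called higher (40.3%) and 1 lower, against 5.82% of all genes called higher, and their median log2 fold change was 0.35. They took 2.06, 2.05 and 2.06% of the counts in IP and 1.26, 1.11 and 1.21% in IgG, without overlap. Their genes are long, with a median of 4939 exonic bases, and their median level in IP was 182 CPM, against 55.7 for all genes. In the longest length bin 21 of 36 were called higher (58.3%), against 20.6% of the other genes, and in the next longest length bin 4 of 10, against 5.32%.

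The called genes covered several classes of chromatin enzyme. nej (FBgn0261617, X, 9665442 to 9687066), the histone acetyltransferase CBP, stood at 802, 795 and 826 CPM in IP and 383, 385 and 400 in IgG, a 2.08-fold difference (log2 fold change 1.05, SE 0.07, adjusted p 0.000350). The nucleosome remodellers Mi-2, kis, Chd1, dom, brm and Iswi were higher by 1.10, 0.92, 0.88, 0.88, 0.81 and 0.53 on the log2 scale. The histone demethylases Kdm5 and Su(var)3-3 were higher by 1.07 and 0.75, and the histone methyltransferases gpp, egg, G9a, ash1, trx, Set1 and NSD by 0.86, 0.80, 0.67, 0.65, 0.57, 0.52 and 0.50. Of the Polycomb proteins on the list, Psc was called at 0.69, whereas Su(z)12, Pc and E(z) were not, at 0.27, -0.03 and -0.22. The 1 gene called lower was Nurf-38, the pyrophosphatase subunit of the NURF remodeller (-0.58, SE 0.14, adjusted p 0.0371), with 1481 exonic bases. The count of 25 was 8 with exon length removed and 14 to 24 when 1 library was left out, with 22 without IgG replicate 3.

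**Figure D5:**
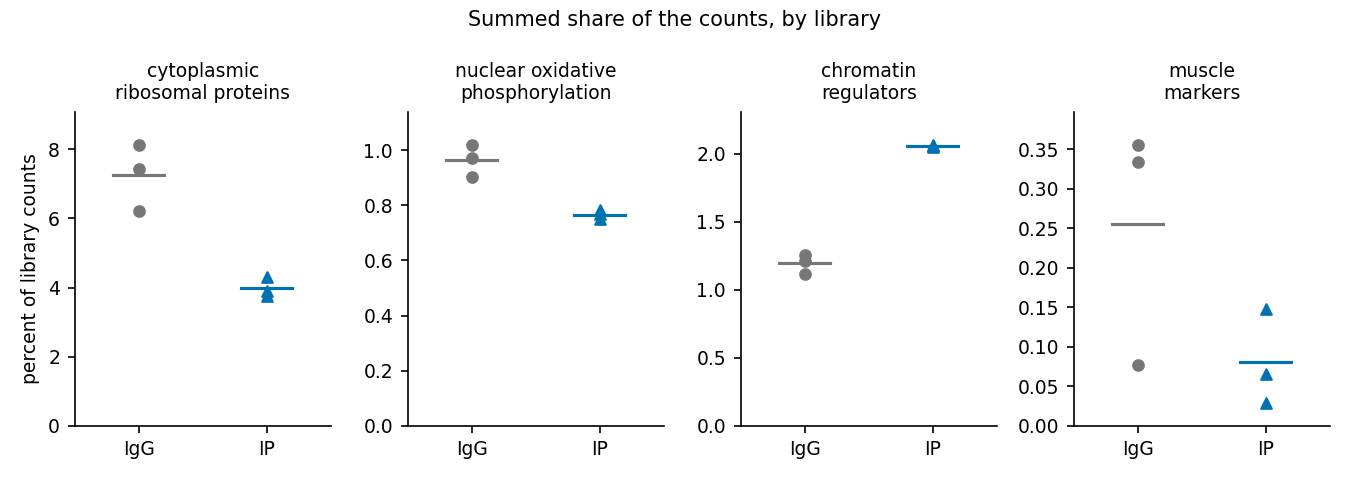
Points give the summed share of each library's counts, in percent, for 4 lists in the 3 IgG libraries (grey circles) and the 3 IP libraries (blue triangles), with group means as bars. Ribosomal protein mRNAs hold 3.75 to 4.30% in IP against 6.22 to 8.12% in IgG, chromatin regulators hold 2.05 to 2.06% against 1.11 to 1.26%, and the muscle markers overlap between the groups.

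Among 37 genes of Mediator and RNA polymerase II, 6 were called higher, against 5.82% of all genes, and none lower. Spt6 (FBgn0028982, X, 6267797 to 6274984), an elongation factor that handles nucleosomes, stood at 731, 738 and 693 CPM in IP and 345, 385 and 346 in IgG (log2 fold change 1.01, SE 0.08, adjusted p 0.000396). The others were the Mediator kinase module subunits kto and skd (1.04 and 0.68), MED14 (0.84), the largest polymerase subunit Polr2A (0.56) and Spt5 (0.40). In this list the 17 genes of the shortest length bin had a median of -0.18 and no call, and 5 of the 9 in the longest length bin were called. IntS1, the largest subunit of the Integrator complex, was the only 1 of 13 Integrator genes called (1.13, SE 0.09, adjusted p 0.000396). Of 38 splicing genes, Prp8, the core protein of the spliceosome, was higher at 0.96 (SE 0.08, adjusted p 0.000396) with 1 other, a share near that of all genes, and SmD2, a small Sm ring protein, was lower at -0.73 (SE 0.16, adjusted p 0.0307). Among 27 nuclear pore genes 6 were higher and none lower, led by Nup98-96 (0.75, SE 0.08, adjusted p 0.00127) and Nup358 (0.82). None of these 6 was called with exon length removed, nor was SmD2, whereas Spt6, IntS1 and Prp8 were. The Mediator and RNA polymerase II list then had 2 higher calls. With 1 library left out, the higher calls lay between 2 and 5 for Mediator and RNA polymerase II, between 1 and 3 for splicing and between 3 and 6 for the nuclear pore.

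Ubiquitin ligases and other giant proteins of that pathway, which mark proteins for destruction, gave 9 higher and no lower calls among 26. Over all genes 5.82% were called higher. faf (FBgn0005632, 3R, 31777020 to 31790681), a deubiquitinase that acts in the germline, stood at 934, 911 and 943 CPM in IP and 466, 523 and 412 in IgG (log2 fold change 0.99, SE 0.10, adjusted p 0.000671). The large ligases Bruce, HERC2, HUWE1, poe and hyd were higher by 0.99, 0.85, 0.80, 0.66 and 0.50. All 9 lie in the longest length bin, where they made up 64.3% of 14, against 21.2% of the other genes. With exon length removed 2 were called, and with 1 library left out 8 to 10.

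Among the mRNAs of the cell surface and the secretory and endocytic routes, higher calls also came without lower ones. Over all genes 5.82% were called higher and 3.96% lower. Of 37 adhesion, junction and polarity genes 9 were higher. Atpalpha (FBgn0002921), the catalytic subunit of the sodium pump, which is also needed at septate junctions, was 2.57-fold higher at 2986, 3152 and 3323 CPM in IP against 1148, 1293 and 1245 in IgG. The others included the scaffold Magi (1.69), the Fat-like cadherin kug (1.00), the apical determinant crb (0.93), the receptor N (0.85) and the polarity proteins baz and scrib (0.73 and 0.40). Of 47 genes for yolk uptake, endocytosis and vesicle traffic 8 were higher. They included yl, the vitellogenin receptor by which oocytes take up yolk (0.83), the clathrin heavy chain Chc (0.51) and its adaptor AP-2alpha, at 377, 393 and 374 CPM in IP and 229, 229 and 240 in IgG (0.71, SE 0.08, adjusted p 0.00127). In the longest length bin 34.6% of 26 adhesion genes and 46.2% of 13 endocytic genes were called higher, against 21.4% of the other genes in each case. With exon length removed 2 of the adhesion genes and 1 of the endocytic genes were called, and with 1 library left out 5 to 12 and 4 to 12.

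The basement membrane around the follicle cells gave the highest median of the lists plotted, 0.54 over 13 genes. Of these, 4 were called higher, against 5.82% of all genes. Both chains of collagen IV rose. Col4a1 (FBgn0000299, 2L, 5029609 to 5037279) stood at 768, 890 and 741 CPM in IP and 376, 410 and 338 in IgG (log2 fold change 1.09, SE 0.10, adjusted p 0.000654), and vkg, the other chain, at 686, 825 and 646 against 280, 395 and 253 (1.22, SE 0.17, adjusted p 0.00377). Both remained called with exon length removed. The laminin chain LanA (0.72) and the collagen-modifying enzyme Plod (0.62) were higher too. Ppn, Pxn and SPARC went the other way without being called, at -2.10, -2.13 and -1.02 (adjusted p 0.266, 0.195 and 0.0541), and in Ppn and Pxn the groups overlapped. With 1 library left out 2 to 5 of the list were called higher.

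Cytoskeletal mRNAs were called in both directions, against 5.82% of all genes called higher and 3.96% lower. Of 53 genes for spectrins, motors and large cytoskeletal proteins, 8 were higher, among them the dynein heavy chain Dhc64C (0.90, SE 0.12, adjusted p 0.00259), the spectraplakin shot (0.76), the kinesin heavy chain Khc (0.70) and lva, a Golgin that binds dynein (1.21, SE 0.11, adjusted p 0.000527). The 2 lower ones were the small actin regulators tsr, the fly cofilin, at 222, 242 and 229 CPM in IP and 470, 426 and 460 in IgG (-0.97, SE 0.08, adjusted p 0.000486), and chic, the fly profilin (-0.34). In the longest length bin 20.0% of the 35 genes of the list were called higher, near the 21.6% of the other genes there. With exon length removed 1 was higher and 2 were lower, and with 1 library left out 3 to 9 were higher and 1 to 4 lower.

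Among regulators of maternal mRNA, 8 of 41 were higher and 3 lower, against 5.82 and 3.96% of all genes. In the longest length bin 5 of 21 were higher (23.8%), near the 21.6% of the other genes, and with 1 library left out the higher calls lay between 1 and 8. Not1, the scaffold of the deadenylase complex, rose by 0.69 (SE 0.08, adjusted p 0.00123), with Dcr-1 (0.92), AGO2 (0.58), tral (0.51) and AGO1 (0.34), which act in small RNA silencing or, for tral, in masked maternal particles. The poly(A)-binding protein pAbp was lower at -0.59 (SE 0.10, adjusted p 0.00869), with yps (-0.69) and me31B (-0.38), which package maternal mRNA. No gene of the list was called higher with exon length removed, and 2 were lower, among them pAbp at -0.83 (adjusted p 0.00624).

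mRNAs of the germline programme were called in both directions, in small numbers and against 5.82% of all genes called higher and 3.96% lower. Of 14 mRNAs that are localized in the oocyte, 2 were higher and 2 lower, with a median of 0.04. bcd, the anterior determinant, stood at 368, 318 and 293 CPM in IP and 222, 234 and 201 in IgG (log2 fold change 0.58, SE 0.11, adjusted p 0.0172), and CycB, a mitotic cyclin, was higher by 0.25 (adjusted p 0.0442). pgc, which silences transcription in germ cells, was lower at -0.49 (SE 0.09, adjusted p 0.0159), and exu, a protein that helps localize bcd mRNA, at -0.28 (adjusted p 0.0462). osk, which builds the germ plasm, stood at 1372, 1211 and 1000 CPM in IP and 1337, 1356 and 1137 in IgG, and grk, the dorsoventral signal, at 37.9, 35.5 and 25.4 against 17.5, 31.0 and 45.7, so that both overlapped. Of 25 germline differentiation genes, ovo (0.61, SE 0.09, adjusted p 0.00465) and mei-P26 (0.41) were higher and none was lower. Of 23 meiosis genes 3 were higher, led by tefu, the fly ATM kinase (1.18, SE 0.18, adjusted p 0.00534). In the cytoplasmic piRNA pathway, which silences transposons, SoYb and tud were higher (1.31 and 0.65) among 24, and in the nuclear pathway egg was higher and arx lower (0.80 and -0.79) among 19. Of the genes named here, bcd, exu and SoYb were called with exon length removed. With 1 library left out, the localized mRNAs had 0 to 1 higher and 0 to 2 lower calls, germline differentiation 1 to 2 higher and meiosis 2 to 4 higher.

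Chorion mRNAs, made by follicle cells at the end of oogenesis, were mostly lower in value. The calls given here stand against 5.82% of all genes called higher and 3.96% lower. Of 12 chorion genes 2 were called lower, Cp15 at 1823, 2215 and 2434 CPM in IP and 3751, 4800 and 6442 in IgG (log2 fold change -1.21, SE 0.19, adjusted p 0.00578) and Cp7Fc (-0.80, adjusted p 0.00736). The other 9 short ones lay between -0.82 and -0.33, and dec, with 5748 exonic bases, at 0.42 (adjusted p 0.0609). When the fit took replicate number as a block, 11 of the 12 chorion genes were called lower. With exon length removed 1 was, Cp15 (adjusted p 0.0354), and with 1 library left out 2 to 5 were. Of 13 vitelline membrane and yolk genes, fs(1)N was higher (0.71, SE 0.15, adjusted p 0.0225) and Yp3, a yolk protein, was lower (-0.44, SE 0.07, adjusted p 0.00718). Each was 7.69% of the list, near the shares of all genes. With exon length removed Yp3 was still called (adjusted p 0.0414) and fs(1)N was not (adjusted p 0.203). Yp1 and Yp2, the other yolk proteins, were at -0.19 and -0.08 and not called.

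Among called genes with at least 10 CPM and no overlap of the groups, the largest single differences beyond these lists were mostly falls. The lowest log2 fold change of all 7095 genes, -4.40, was that of an rRNA feature that was not called. The feature FBgn000003, which the annotation does not name, took 1.04, 0.879 and 0.684% of the counts in IP and 5.89, 14.6 and 7.89% in IgG, a 12.7-fold difference (adjusted p 0.00362). Next after the mitochondrial mt:ND2 and mt:lrRNA came CG15431 (log2 fold change -2.68), jp (-2.49), the fly junctophilin, which links membranes in muscle, TpnC73F (-2.43), a troponin C of muscle, lncRNA:CR40469 (-2.41) and CG8012 (-2.26), with adjusted p of 0.0334, 0.0392, 0.0394, 0.0172 and 0.00535. CG15431, jp, lncRNA:CR40469 and mt:ND2 each lost their call when any IP library was left out, TpnC73F lost it without IP replicate 2 or 3 or IgG replicate 1 or 2, and FBgn000003 without IP replicate 2, whereas CG8012 did not lose it. Of the 7454 exonic bases of jp, 5935 overlap another gene on the same strand. TpnC73F stood at 26.2, 14.5 and 6.37 CPM in IP and 103, 117 and 34.1 in IgG. The 11 of 12 muscle markers counted in all 6 libraries moved with these genes. They held 0.148, 0.0649 and 0.0288% of the counts in IP and 0.334, 0.355 and 0.0768% in IgG, all 11 had negative log2 fold changes (median -2.03), none was called, and in all 11 the groups overlapped. When the fit took replicate number as a block, 7 of the 11 were called lower, though the labels do not show that the numbers pair the samples. The remaining marker, fln, was listed at 0 in all 6. Mhc, the muscle myosin, stood at 308, 120 and 34.8 CPM in IP and 865, 978 and 116 in IgG. In the 3 Input libraries the muscle markers held 0.0567, 0.0481 and 0.0312% of the counts. The part of muscle RNA, which the sheath of the ovary holds, in these falls was not tested. Whether the lysates behind the IP and IgG libraries held the same amount of muscle was not tested either.

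On the other side the largest rises among called genes with at least 10 CPM and no overlap were those of Magi, Cht6, a chitinase (1.61, adjusted p 0.0364), fz3, a Wnt receptor of the Frizzled family (1.60, adjusted p 0.0209), and Cap-D3, a condensin subunit (1.52, adjusted p 0.0445). Magi stood at 30.2 to 41.3 CPM in IP and 9.81 to 12.5 in IgG. Cht6, fz3 and Cap-D3 each lost their call when any IP library was left out, and Magi did not (highest adjusted p 0.0490 over 19 alternatives). The called mud (0.84) has 8769 of its 8895 exonic bases overlapped by genes on the opposite strand, and it is not known whether reads were counted by strand.

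The mRNA of the tagged protein did not differ detectably between the antibodies. ais (FBgn0036754) stood at 98.1, 78.1 and 70.1 CPM in IP and 105, 56.2 and 72.7 in IgG, overlapping, with a log2 fold change of 0.07 (SE 0.24, adjusted p 0.897). larp (FBgn0261618, 3R, 28318162 to 28336440) stood at 775, 833 and 790 CPM in IP and 598, 562 and 516 in IgG, a log2 fold change of 0.52 (SE 0.08, adjusted p 0.00583). The gene has 9126 exonic bases, and with exon length removed the value was 0.20 (adjusted p 0.263). CTTT stands near the annotated starts of Non1 and pAbp, both called lower, and also of Not1 and fz3, both called higher. Non1 (FBgn0028473, 2R, 9396265 to 9398734), a GTPase of large subunit assembly, stood at 171, 165 and 158 CPM in IP and 257, 253 and 301 in IgG. Its log2 fold change was -0.72 (SE 0.10, adjusted p 0.00417), and it was also -0.72 with exon length removed (adjusted p 0.0113).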

How the data were processed

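Tables of unnormalized read counts, 1 row per FlyBase ID, were deposited by the authors for 9 poly(A) RNA libraries; the 6 IP and IgG libraries were compared here, and the 3 Input libraries (10% of the lysate) entered only the expression filter and 1 alternative fit. The submitters' processing notes name HISAT2 2.1.0, featureCounts 1.4.6 and the dm6 genome; the options, strand setting and gene annotation are not given in the sources used here, so shared reads of overlapping genes or near-identical copies may be split in ways that cannot be seen. RNA was fragmented for 13 minutes and libraries were directional, per the labels. The design text of the series gives Larp as the tag's carrier; the labels give aramis, and were followed.

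Counts were tested with edgeR 4.0.16 (limma 3.58.1, R 4.3.3) by robust quasi-likelihood, two-sided, with TMM scaling, on 8789 genes passing edgeR's expression filter (minimum count 10 in 3 libraries). Standard errors come from the F statistic, and CPM values are TMM-scaled. Total counts of 30533376 to 46061760 set the counting precision, which covers counting error only. Names and exon lengths came from Ensembl BDGP6 (16647 of 17024 IDs named; 178 of the 7095 genes unnamed). Genes were named by rule: the 10 largest rises and falls among called genes with at least 10 CPM and no overlap, the best-supported call of each list in each direction, ais, larp and Non1, and all members of lists of under 15 genes. The genes and the 44 lists were chosen with earlier results of these data known. Alternatives were DESeq2 1.42.0, other scalings, filters and thresholds, all 9 libraries, the replicate block, each replicate left out, and loess curves (span 0.3) of exon length or GC content. The fit was also run on simulated data with known changes. These had the same scatter in both groups and in all genes, unlike the libraries here, so the run checks the code only.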

Additional observations from a re-analysis of the deposited data

Results flagged for a closer look

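The description above is restricted to genes counted in all 6 libraries, and 1694 tested genes fall outside it. Of these, 6 were called higher in IP and none lower (edgeR quasi-likelihood, adjusted over 8789 genes), and all 6 had no count in any IgG library. They are given here because counts appeared outside the genes described, above a control at 0. No fold is given, since IgG counts of rare RNAs scatter between libraries beyond counting error (NimC1 had 0, 0 and 202 counts there). dtr had 621 IP counts over the 3 libraries (180, 259 and 182, adjusted p 0.0280). snoRNA:Or-CD4, a small nucleolar RNA, had 516 (167, 178 and 171, adjusted p 0.0366). corn had 409 (133, 177 and 99, adjusted p 0.0430), asRNA:CR45126 had 402 (134, 156 and 112, adjusted p 0.0425), CG7884 had 390 (137, 87 and 166, adjusted p 0.0445) and CG7272 had 339 (86, 105 and 148, adjusted p 0.0478). All 6 had counts in each Input library, the lowest being 19 for snoRNA:Or-CD4. Among the 1694 genes, 488 had no IgG count at all and 1687 had none in at least 1 IgG library, against 290 with none in at least 1 IP library.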

How the results depend on the processing

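All 7095 genes together gave 694 calls, 413 higher and 281 lower. Calls (all, higher, lower) were 1252, 637 and 615 with DESeq2, 1618, 829 and 789 with all 9 libraries in one fit, and 1146, 981 and 165 with scaling by library totals. They were 235, 62 and 173 with exon length removed, 312, 166 and 146 at an adjusted p under 0.01, and 133, 33 and 100 at 2-fold or more. DESeq2 size factors, other filters, GC correction and removal of FBgn000003 kept the total between 656 and 750. With 1 replicate left out the total lay between 295 and 868, higher calls between 158 and 466 and lower calls between 137 and 404. IP and IgG libraries of one number had deviations correlated at 0.071, 0.036 and 0.19 across genes, and a differently numbered pair reached 0.088, so the numbers were not taken to pair the samples. A replicate block gave 1261, 788 and 473; joined to the length correction it gave 645, 276 and 369. With the block 7 of 11 muscle markers and 11 of 12 chorion genes were called lower, against 0 and 2 without it. Among the largest rises and falls, the best-supported call of each list, larp, Non1 and ais, none changed direction under any of the alternatives except ais, which was not called and ranged with 1 replicate left out from -0.13 (without IgG replicate 2) to 0.32 (without IgG replicate 1), with -0.07 without IP replicate 1. Of these genes' results under alternatives, 245 lost their call and 1006 did not change. Called under each of the 19 alternatives were Magi, Atpalpha, vkg, CG4554, lva, CG8012, mt:CoII, RpL21, RpS20, nej, IntS1, Spt6, Cp15 and Col4a1. Over these alternatives the median of the ribosomal protein genes ran from -1.22 to -0.85.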
